A study of Rattus norvegicus with 15 samples.

Results

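Mitosis and G2/M genes encode the proteins that take a cell from G2 phase through spindle assembly, chromosome segregation and cell separation. They were followed here in cultured rat brain microvascular endothelial cells (BMECs) after x-ray exposure. Of 48 listed genes, 47 had rows in the deposited table of transcripts, and Ccnb2 was not analysed here. For each gene, the FPKM values (fragments per kilobase of transcript scaled to the mapped fragments of the library) of its annotated transcripts were summed with those of unnamed assembled transcripts at a locus that carried its name alone. All 47 genes reached a mean of 0.5 FPKM over the 15 libraries and were kept, out of 37367 genes with rows and 17895 genes that reached the same minimum and were tested. They were sorted into 9 roles, from CDK1 and its regulators to the proteins of anaphase and mitotic exit.

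The cells were primary cultures from the cerebral microvessels of Sprague Dawley rats (Spraque-Dawley in the labels), taken from littermates aged 2 to 3 weeks. Polyadenylated RNA was sequenced. Each of 5 groups had 3 libraries. Control cells were handled like the others without radiation and are labelled as cultured for 12 h. The other groups were exposed at 60% confluence to 5 Gy or 20 Gy of x-rays at 2.5 Gy/min and were collected 12 h or 24 h later. Unexposed cells cultured for 24 h were not analysed here. For the groups collected at 24 h, the effects of x-ray exposure and of longer culture cannot be told apart against control. Against 12 h, time after exposure and time in culture cannot be told apart. The study calls the libraries biological replicates, but no label ties them to separate cultures or animals, and the p-values then measure only the spread between these libraries, which may be technical.

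The depth was estimated at 5.44 to 7.49 gigabases of aligned sequence per library. The estimate took the most frequent step of FPKM times length in short transcripts as 1 read pair of 300 bases. Of the values used, 18.3% to 27.4% per library lay at that step. The cells are called BMECs after their label, although most defining endothelial markers were near 0. Of 14 listed endothelial markers, 12 had rows, 9 of them had a mean below 0.5 FPKM, Tie1 and Emcn were listed at 0 in every library, and the sum of the list was 4.13 to 9.01 FPKM per library. The 7 fibroblast markers summed to 4160 to 4530 FPKM in the control libraries and to 903 to 2180 FPKM in the libraries collected at 24 h. Among them, Pdgfra had means of 52.1 FPKM in control cells and 60.8 and 51.6 FPKM 24 h after 5 Gy and 20 Gy, while the others were lower at 24 h. Pericyte and smooth muscle markers summed to 91.2 to 99.5 FPKM in the control libraries and to 40.6 to 67.2 FPKM at 24 h, with Kcnj8 and Abcc9 listed at 0 in every group. Pdgfrb, Cspg4, Acta2 and Rgs5 were lower at 24 h. Tagln had means of 36 FPKM in control cells and 25.6 and 36.6 FPKM 24 h after 5 Gy and 20 Gy. Notch3 and Myh11 were higher at 24 h, with Myh11 going from 0.0608 FPKM to 1.29 and 1.18 FPKM. The astrocyte list, with Aqp4 listed at 0 in every group, summed to 10.7 to 13.2 FPKM in the control libraries and to 19 to 32.6 FPKM in the exposed ones. That rise lay in Aldh1l1, with a mean of 9.52 FPKM in control cells and 20.8 to 24.1 FPKM in the exposed groups. Gfap and S100b were lower in every exposed group than in control cells, and Slc1a3 went from 1.79 FPKM to between 0.918 and 2.36 FPKM. Lists of microglial, neuronal and oligodendrocyte markers summed to at most 1.82, 12.1 and 1.22 FPKM per library. The part that a change in cell types had in the results below was not tested, and in bulk RNA fewer dividing cells and less of these RNAs per cell cannot be told apart.

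Entry into mitosis is driven by the kinase CDK1 bound to cyclin B, which CDC25 phosphatases switch on and which Polo-like and Aurora kinases support. The spindle checkpoint holds the cell before anaphase until its kinetochores are attached to microtubules, and the anaphase-promoting complex with CDC20 then marks cyclin B and securin for destruction. Most of these genes are transcribed late in the cycle. In cells that leave the cycle or arrest, they are repressed by the DREAM complex, which binds the cell cycle genes homology region (CHR) of their promoters, close to CCAAT boxes bound by the activator NF-Y.

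Summed over the set, the mitosis and G2/M genes were lower in every exposed group than in control cells, and the sum was lowest 24 h after 5 Gy. The summed FPKM of the 47 genes was 608.3, 718.1 and 824.2 in the control libraries. It was 361.8, 389.3 and 271.6 at 12 h after 5 Gy and 501, 518.2 and 328.4 at 12 h after 20 Gy. At 24 h it was 101.2, 113.1 and 110.6 after 5 Gy and 137.7, 229.1 and 171.5 after 20 Gy. All exposed libraries lay below all control libraries, the 24 h libraries lay below the 12 h libraries, and at 24 h the libraries of 5 Gy lay below those of 20 Gy. At 12 h the ranges of both doses overlapped.

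For a typical gene of the set, the group mean was 45.0% of the control mean at 12 h after 5 Gy and 65.0% after 20 Gy, as the median over 46 genes without Kif23. At 24 h the median was 9.6% after 5 Gy and 23.1% after 20 Gy. The smallest remainders belonged to Cdca3, at 1.12% of its control mean 24 h after 5 Gy, and to Cdc20, at 9.66% of its control mean 24 h after 20 Gy. The genes varied together between the libraries of a group. Of 46 genes, 43 were lowest in the first of the control libraries, 45 were lowest in the third library 12 h after 5 Gy, 45 were lowest in the third library 12 h after 20 Gy, and 38 were highest in the second library 24 h after 20 Gy. The genes are therefore not independent measurements of a group.

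**Figure D1:**
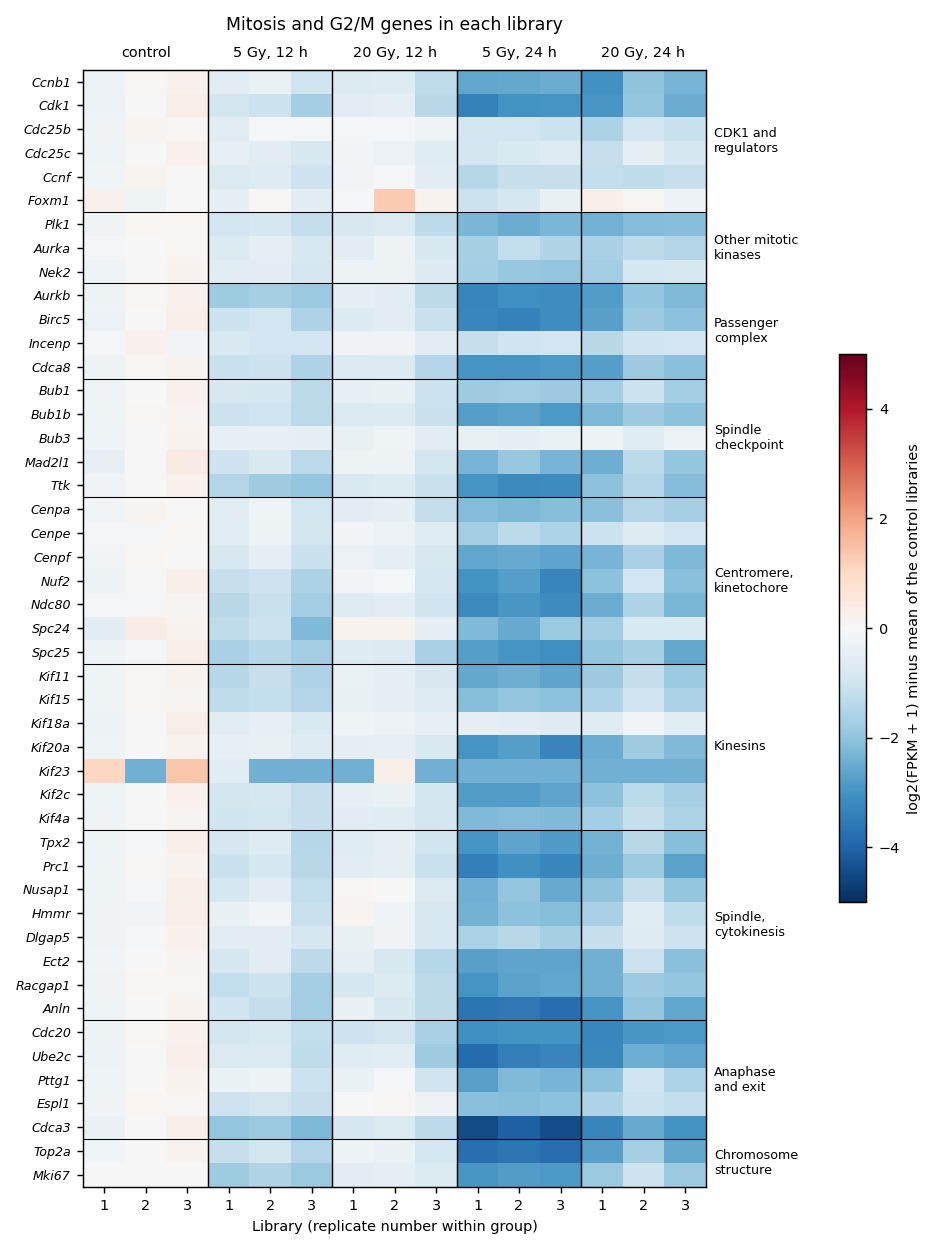
Each row is a gene and each column a library, and the colour gives log2(FPKM + 1) minus the mean of the 3 control libraries, with blue below and red above the control mean. Nearly all rows turn a deeper blue from 12 h to 24 h, and Bub3, Kif18a and Foxm1 are among the palest at 24 h. Kif18a and Foxm1 have low FPKM, for which this scale understates a change. They stood at 43.7% and 40% of their control means 24 h after 5 Gy, and Bub3 at 75.5%. The Kif23 row rests on values of 0 in several libraries.

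Differences were tested with limma on log2(FPKM + 1) in a model with 1 mean per group, and a gene was called at a Benjamini-Hochberg adjusted p below 0.05 over all genes tested and a fold change of at least 1.5 on that scale. The scale understates the change of genes with low FPKM. All 4 comparisons with control share the same 3 control libraries. At 12 h after 5 Gy, 34 of 47 genes fell and none rose, where 4.96% of all tested genes fell and 4.98% rose, and the median log2 change was -1.003 against 0.03 over all genes. At 12 h after 20 Gy, 16 of 47 fell and none rose, where 3.64% of all genes fell and 4.9% rose, with a median of -0.56 against 0.01. The count of 16 rested on single libraries: it was 5 without the third library 12 h after 20 Gy, 8 without the second control library and 6 without the third control library. It was also 5 when the third 12 h library of both doses was left out, a setting chosen after seeing the data. Plk1, Bub1b, Ttk, Racgap1 and Cdc20 were called whichever library was left out.

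At 24 h after 5 Gy, 44 of 47 genes fell and none rose, where 20.8% of all genes fell and 20.5% rose, and the median log2 change was -2.54 against -0.05 over all genes. At 24 h after 20 Gy, 44 of 47 also fell and none rose, where 23.3% of all genes fell and 17% rose, with a median of -1.74 against -0.14. The genes not called at 24 h were Foxm1, Bub3 and Kif18a at both doses. The libraries of a gene lay entirely below its control libraries for 43, 34, 46 and 44 of the 47 genes in the order 12 h after 5 Gy, 12 h after 20 Gy, 24 h after 5 Gy and 24 h after 20 Gy. Over all tested genes this held for 16.9%, 17%, 35.1% and 36.7%. Of the 47 genes, 13 were called in all 4 comparisons with control, 24 in 3, 7 in 2 and 3 in none.

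**Figure D2:**
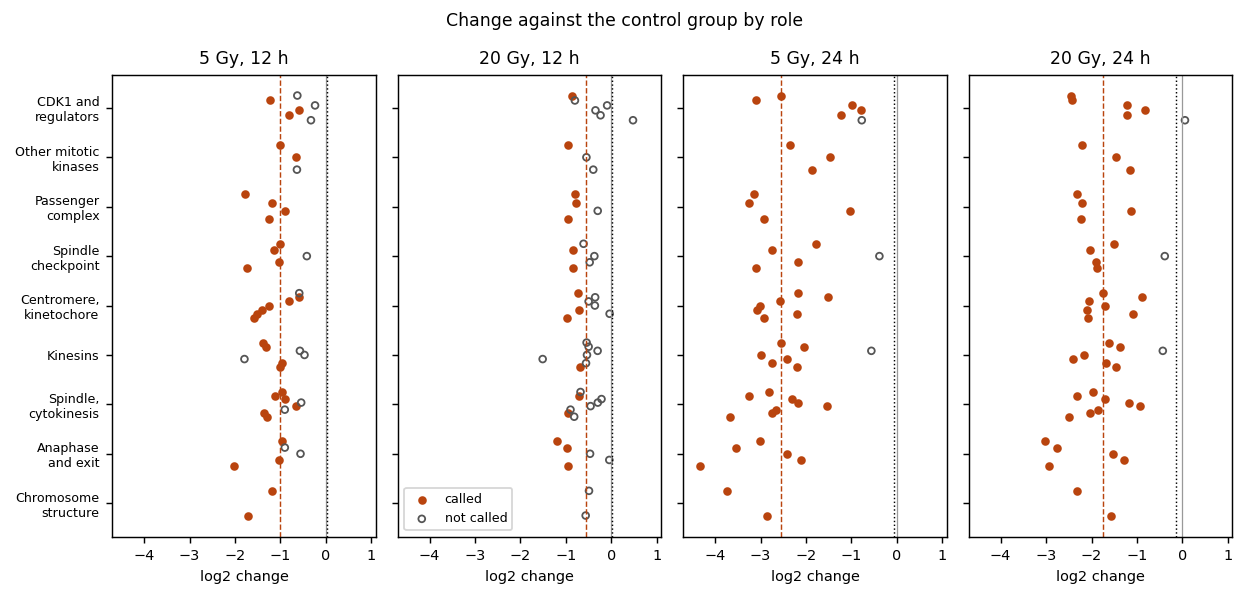
Points are single genes, the horizontal axis is the log2 change against the control group on the log2(FPKM + 1) scale, and rows are roles. Filled points were called and open points were not, the dashed line is the median of the 47 genes, and the dotted line is the median of all tested genes, which stayed between -0.14 and 0.03. At 24 h, 44 points at each dose are called and all of them are negative.

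Promoters of 42 of the 48 listed genes, Ccnb2 among them, were found by symbol in the RefSeq table of the rat assembly GRCr8, each spanning 250 bases before to 50 bases after the annotated start. Aurkb, Foxm1, Incenp, Racgap1, Tpx2 and Ube2c had no entry. The CHR was searched as TTTGAA or TTCGAA and the NF-Y box as CCAAT, on both strands, and a CHR match and a CCAAT match can share at most 1 base. For the set, 1 promoter was taken per gene, while the comparison took every promoter in the table and was not limited to tested genes. A CHR match was present in 30 of 42 promoters (71.4%), compared with 19.7% of 33469 promoters in the table. A CCAAT match was present in 32 (76.2%, compared with 37.5%), both in 24 (57.1%, compared with 7.95%), and neither in 4 (9.52%, compared with 50.7%). CHR matches were most frequent from 50 bases before the start up to it, in 31.0% of the promoters of the set and 3.06% of all promoters. CCAAT matches were most frequent 100 to 51 bases before the start, in 57.1% and 10.8%. These are matches of letters and were not tested as binding sites.

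**Figure D3:**
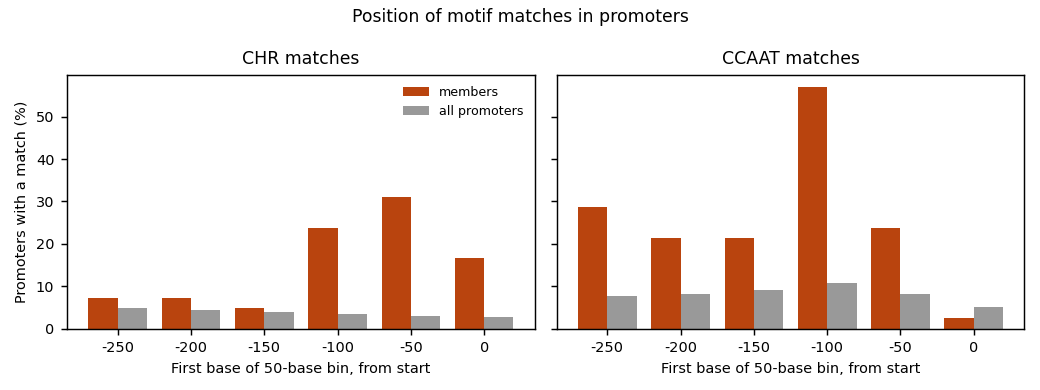
Bars give the percentage of promoters with at least 1 match that begins in each bin of 50 bases, counted from the annotated start, for the 42 promoters of the set and for all 33469 promoters. CHR matches of the set peak in the bin from -50 at 31.0%, and CCAAT matches peak in the bin from -100 at 57.1%.

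4 promoters are shown 5′ to 3′ on the strand of the gene, with every CHR and CCAAT match in capitals. Cdc20, which had the largest fall 24 h after 20 Gy, lies at chr5:137255750-137256049 on the minus strand and holds 1 CHR and 2 CCAAT matches. Cdk1, the central mitotic kinase, lies at chr20:19265043-19265342 on the plus strand and holds 2 CHR and 3 CCAAT matches. Ccnb1, its cyclin, lies at chr2:33655176-33655475 on the minus strand and holds 2 CCAAT matches and none of the letters searched for CHR. Bub3, which reached the fold limit in no comparison, lies at chr1:195760282-195760581 on the plus strand and holds 1 CHR and 3 CCAAT matches.
Cdc20: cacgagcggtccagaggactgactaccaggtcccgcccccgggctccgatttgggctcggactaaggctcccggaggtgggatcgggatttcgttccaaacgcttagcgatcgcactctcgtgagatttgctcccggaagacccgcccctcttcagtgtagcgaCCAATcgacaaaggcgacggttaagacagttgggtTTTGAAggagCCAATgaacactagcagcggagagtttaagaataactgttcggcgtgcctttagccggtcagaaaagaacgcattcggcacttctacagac
Cdk1: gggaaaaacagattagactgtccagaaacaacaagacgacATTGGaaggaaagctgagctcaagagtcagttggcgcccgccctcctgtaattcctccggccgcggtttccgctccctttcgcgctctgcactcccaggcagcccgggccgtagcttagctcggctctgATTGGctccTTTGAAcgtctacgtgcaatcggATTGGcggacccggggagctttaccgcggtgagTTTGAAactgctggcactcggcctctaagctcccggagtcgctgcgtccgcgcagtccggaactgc
Ccnb1: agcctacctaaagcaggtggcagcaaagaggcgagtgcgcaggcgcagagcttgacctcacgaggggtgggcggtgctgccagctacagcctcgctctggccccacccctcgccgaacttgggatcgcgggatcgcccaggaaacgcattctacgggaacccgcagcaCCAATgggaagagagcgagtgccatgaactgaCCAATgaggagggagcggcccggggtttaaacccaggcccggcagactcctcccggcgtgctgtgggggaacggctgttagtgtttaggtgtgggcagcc
Bub3: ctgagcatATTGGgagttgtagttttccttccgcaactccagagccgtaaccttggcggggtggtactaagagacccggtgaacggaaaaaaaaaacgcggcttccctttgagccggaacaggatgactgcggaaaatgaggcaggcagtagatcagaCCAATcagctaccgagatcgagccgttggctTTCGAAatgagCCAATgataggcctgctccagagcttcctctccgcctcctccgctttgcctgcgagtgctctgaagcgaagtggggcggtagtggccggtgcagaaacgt
By annotated start, a gene could thus hold both motifs and be among the least changed, as Bub3 was. A gene could also lack a CHR match and have the largest fall of the set 24 h after 5 Gy, as Cdca3 did. Ccnb1, also without a CHR match, stood at the median of the set in that group. Whether these cells use the annotated starts was not tested. In control cells 15 genes were led by an assembled transcript, Cdca3 among them, and the annotated Cdca3 transcript was listed at 0. Among the genes with a promoter and FPKM values, the median log2 change 24 h after 5 Gy was -2.57 for 29 genes with a CHR match and -2.02 for 12 genes without. At 24 h after 20 Gy it was -1.89 and -1.49. These medians are descriptions and were not tested.

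CDK1 and its regulators fell in 3 of 6 genes 12 h after 5 Gy, in 1 of 6 after 20 Gy, and in 5 of 6 at 24 h after either dose. Ccnb1, cyclin B1, stood at 21.6, 29.02 and 31.1 FPKM in the control libraries, 18.2, 21.2 and 12.8 FPKM 12 h after 5 Gy, 16.3, 16.9 and 10.5 FPKM 12 h after 20 Gy, 3.67, 3.80 and 3.94 FPKM 24 h after 5 Gy, and 2.39, 5.92 and 4.56 FPKM 24 h after 20 Gy. Its exposed libraries all lay below the control libraries, those of 24 h lay below those of 12 h, and the doses overlapped at each time. Against control, the change of Ccnb1 on the log2 scale was -0.63 ± 0.26 (SE; adjusted p = 0.11) and -0.87 ± 0.26 (0.037) at 12 h for 5 Gy and 20 Gy, and -2.54 ± 0.26 (3.2e-06) and -2.46 ± 0.26 (4.4e-06) at 24 h. Without the third library 12 h after 20 Gy, or without 1 of 3 other libraries, the call of Ccnb1 at 12 h was lost. Cdk1 stood at 38.2, 45.6 and 57.2 FPKM in the control libraries, 24.04, 21.7 and 13.7 FPKM 12 h after 5 Gy, 31.7, 32.8 and 17.2 FPKM 12 h after 20 Gy, 3.55, 4.91 and 5.21 FPKM 24 h after 5 Gy, and 5.37, 11.3 and 7.60 FPKM 24 h after 20 Gy. It was lower in every exposed library than in any control library, and at 24 h every library of 20 Gy lay above every library of 5 Gy. For Cdk1, the log2 change against control at 24 h was -3.11 ± 0.29 (adjusted p = 1.6e-06) after 5 Gy and -2.44 ± 0.29 (1.4e-05) after 20 Gy.

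The phosphatases of the set that activate CDK1, Cdc25b and Cdc25c, had smaller changes than Cdk1 itself. Cdc25b stood at 13.4 ± 1.65 FPKM (SD, n = 3) in control cells, 11.3 ± 2.04 and 12.4 ± 0.618 at 12 h after 5 Gy and 20 Gy, and 6.18 ± 0.26 and 5.28 ± 1.33 at 24 h. It was not called at 12 h, with log2 changes of -0.24 ± 0.16 and -0.09 ± 0.16, and fell at 24 h by 1.00 ± 0.16 and 1.21 ± 0.16 on the log2 scale. Cdc25c, a related phosphatase, fell at 24 h by 0.78 ± 0.18 after 5 Gy and 0.83 ± 0.18 after 20 Gy. Its call at 12 h after 5 Gy was lost without some library. Cdc25a, which is not in the set, stood at 7.88 to 8.54 FPKM in the control libraries. It was 3.59 to 5.66 and 4.69 to 6.69 FPKM at 12 h after 5 Gy and 20 Gy, and 11.4 to 12.4 and 8.54 to 10.5 FPKM at 24 h. Ccnf, cyclin F, a ubiquitin ligase subunit, fell at 12 h after 5 Gy (-0.81 ± 0.15, adjusted p = 0.0021) and was not called at 12 h after 20 Gy (-0.24 ± 0.15, 0.31). At 24 h Ccnf fell by 1.23 ± 0.15 and 1.21 ± 0.15.

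Foxm1, a transcription factor that activates many G2/M genes, was the only gene of the set whose change against control had a positive sign, and it was called in no comparison. It stood at 2.52, 1.64 and 2.11 FPKM in the control libraries, 1.20, 2.17 and 1.09 FPKM 12 h after 5 Gy, 1.97, 6.64 and 2.43 FPKM 12 h after 20 Gy, 0.445, 0.690 and 1.37 FPKM 24 h after 5 Gy, and 2.78, 2.30 and 1.61 FPKM 24 h after 20 Gy. The ranges overlapped in every comparison with control other than 24 h after 5 Gy, and the second library 12 h after 20 Gy stood far above the rest. The log2 change was 0.48 ± 0.32 (adjusted p = 0.35) at 12 h and 0.06 ± 0.32 (0.89) at 24 h after 20 Gy, and -0.33 ± 0.32 (0.53) and -0.77 ± 0.32 (0.051) after 5 Gy. Without the third library 24 h after 5 Gy, Foxm1 passed the test in that group (-0.97, adjusted p = 0.031), and without the second library 12 h after 20 Gy the change there was 0.06. These values hold only the annotated transcripts. The locus of Foxm1 (chromosome 4, 161685258 to 161696305, Rnor_6.0, plus strand) also carried the name of Tex52 and 4 unnamed transcripts, which the rule leaves unassigned. With the unnamed transcripts added, a setting chosen after seeing the data, Foxm1 was 11.3 ± 0.84 FPKM in control cells, 2.89 ± 0.896 and 7.53 ± 1.64 at 12 h after 5 Gy and 20 Gy, and 1.6 ± 0.4 and 2.8 ± 0.181 at 24 h. The log2 change of Foxm1 was then -1.68 (adjusted p = 4.1e-05) and -0.54 (0.049) at 12 h, and -2.25 (2.9e-07) and -1.69 (3.6e-06) at 24 h. The sign of the Foxm1 change after 20 Gy thus depended on which transcripts of the locus were counted.

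The other mitotic kinases, Plk1, Aurka and Nek2, were all called 24 h after either dose. Plk1, the Polo-like kinase that acts from mitotic entry to cytokinesis, stood at 16.1, 19.9 and 19.8 FPKM in the control libraries, 9.13, 9.47 and 7.43 FPKM 12 h after 5 Gy, 10.2, 10.7 and 6.91 FPKM 12 h after 20 Gy, 2.98, 2.53 and 3.03 FPKM 24 h after 5 Gy, and 2.81, 3.37 and 3.46 FPKM 24 h after 20 Gy. All exposed libraries lay below all control libraries, and both doses overlapped at each time. The log2 change was -1.02 ± 0.15 (adjusted p = 0.00055) and -0.94 ± 0.15 (0.0011) at 12 h after 5 Gy and 20 Gy, and -2.35 ± 0.15 (6.3e-08) and -2.21 ± 0.15 (1.1e-07) at 24 h. The difference of Plk1 between the doses at 24 h was 0.13 ± 0.15 (0.7). Aurka, the spindle pole kinase, fell at 24 h by 1.48 ± 0.16 and 1.46 ± 0.16 on the log2 scale. Nek2, which separates centrosomes, fell by 1.86 ± 0.23 and 1.16 ± 0.23.

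The chromosomal passenger complex corrects faulty kinetochore attachments, and all 4 of its subunits were called lower 12 h after 5 Gy, and again at 24 h with either dose. At 12 h after 20 Gy, 3 of 4 fell. Aurkb, its kinase, stood at 12.9, 16.3 and 18.4 FPKM in the control libraries, 3.85, 4.27 and 3.57 FPKM 12 h after 5 Gy, 10.9, 10.6 and 5.57 FPKM 12 h after 20 Gy, 0.701, 1.01 and 0.945 FPKM 24 h after 5 Gy, and 1.38, 3.36 and 2.59 FPKM 24 h after 20 Gy. No exposed library reached the lowest control library, and at both times all libraries of 20 Gy lay above all libraries of 5 Gy. Against control, the change of Aurkb on the log2 scale was -1.77 ± 0.24 (adjusted p = 0.00032) and -0.79 ± 0.24 (0.043) at 12 h after 5 Gy and 20 Gy, and -3.15 ± 0.24 (2.9e-07) and -2.32 ± 0.24 (4.3e-06) at 24 h. Birc5 (survivin) and Cdca8 (borealin), which bring the kinase to centromeres, had log2 changes of -3.25 ± 0.24 and -2.92 ± 0.25 at 24 h after 5 Gy, and -2.20 ± 0.24 and -2.22 ± 0.25 after 20 Gy. Incenp, the scaffold of the complex, fell less, by 1.04 ± 0.14 and 1.13 ± 0.14, and kept 45.6% and 42.8% of its control mean. Between 12 h and 24 h after 5 Gy, Incenp was the one subunit not called (-0.15 ± 0.14, adjusted p = 0.4).

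Among the spindle checkpoint genes, Bub1, Bub1b, Mad2l1 and Ttk fell 24 h after either dose and Bub3 did not pass the fold limit. Ttk, the kinase that starts checkpoint signalling at unattached kinetochores, stood at 7.64, 8.48 and 10.2 FPKM in the control libraries, 2.54, 1.82 and 1.54 FPKM 12 h after 5 Gy, 4.77, 4.98 and 3.54 FPKM 12 h after 20 Gy, 0.261, 0.0827 and 0.0896 FPKM 24 h after 5 Gy, and 1.36, 2.51 and 1.18 FPKM 24 h after 20 Gy. The control libraries lay above all others and the libraries 24 h after 5 Gy lay below all others, while the ranges of 12 h after 5 Gy and 24 h after 20 Gy overlapped. For Ttk, the log2 change against control was -1.73 ± 0.19 (adjusted p = 6.5e-05) and -0.85 ± 0.19 (0.009) at 12 h after 5 Gy and 20 Gy, and -3.09 ± 0.19 (4.6e-08) and -1.89 ± 0.19 (3e-06) at 24 h. Ttk rested on 5 to 20 read pairs per library 24 h after 5 Gy, compared with 414 to 641 in control libraries. Bub1b (BubR1), which inhibits CDC20, fell by 2.76 ± 0.16 and 2.04 ± 0.16 at 24 h after 5 Gy and 20 Gy. Mad2l1 (MAD2), its partner in that inhibition, fell by 2.17 ± 0.29 and 1.89 ± 0.29.

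Bub3, the WD-repeat protein that carries Bub1 and Bub1b to kinetochores, stayed close to its control level. It stood at 33.2, 39.3 and 43.9 FPKM in the control libraries, 28.6, 28.9 and 28.3 FPKM 12 h after 5 Gy, 29.4, 32.8 and 26.6 FPKM 12 h after 20 Gy, 29.2, 27.9 and 30.8 FPKM 24 h after 5 Gy, and 31.8, 25.3 and 31.1 FPKM 24 h after 20 Gy. The exposed libraries lay below the control libraries in all 4 groups, by a margin smaller than the range of the control libraries, and they overlapped one another. The log2 change of Bub3 was -0.42 ± 0.11 (adjusted p = 0.02), -0.37 ± 0.11 (0.038), -0.38 ± 0.11 (0.0099) and -0.39 ± 0.11 (0.0096), in the order 12 h and then 24 h, 5 Gy before 20 Gy. Each value passed the adjusted p and none reached the fold limit. Between 12 h and 24 h the difference of Bub3 was 0.03 ± 0.11 (0.82) after 5 Gy and -0.01 ± 0.11 (0.93) after 20 Gy.

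All 7 centromere and kinetochore genes fell 24 h after either dose. At 12 h after 5 Gy 6 of 7 fell, Cenpa (the centromeric histone) being the exception at -0.59 ± 0.22 (adjusted p = 0.086), and at 12 h after 20 Gy 3 of 7 fell. The 4 subunits of the NDC80 complex, which joins kinetochores to microtubules, are Ndc80, Nuf2, Spc24 and Spc25. At 24 h after 5 Gy their log2 changes were -3.07 ± 0.23, -3.02 ± 0.31, -2.19 ± 0.36 and -2.92 ± 0.27, and after 20 Gy they were -2.10 ± 0.23, -1.70 ± 0.31, -1.09 ± 0.36 and -2.07 ± 0.27. Spc24 stood at 7.81, 15.5 and 13.4 FPKM in the control libraries, 4.28, 5.12 and 1.79 FPKM 12 h after 5 Gy, 13.6, 13.3 and 8.23 FPKM 12 h after 20 Gy, 1.76, 1.22 and 2.58 FPKM 24 h after 5 Gy, and 2.80, 6.47 and 6.62 FPKM 24 h after 20 Gy. At 12 h, all libraries of 5 Gy lay below the control libraries while those of 20 Gy overlapped them. Against control, the change of Spc24 on the log2 scale at 12 h was -1.51 ± 0.36 (adjusted p = 0.011) after 5 Gy and -0.04 ± 0.36 (0.96) after 20 Gy, and the difference between the doses, 1.47 ± 0.36, the widest of the set at that time, was not called (0.18). The call of Spc24 24 h after 20 Gy was lost without the second or the third control library or the first library of that group, with log2 changes of -0.76 to -1.01. Cenpe, a kinesin that gathers chromosomes at the spindle equator, and Cenpf, a kinetochore protein of late G2, fell by 1.52 ± 0.18 and 2.57 ± 0.20 at 24 h after 5 Gy, and by 0.89 ± 0.18 and 2.05 ± 0.20 after 20 Gy.

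The kinesins of the set move along spindle microtubules or shorten them, and 6 of 7 fell 24 h after either dose. Kif20a, which brings the passenger complex to the central spindle, stood at 25.1, 29.6 and 33.6 FPKM in the control libraries, 22.03, 22.6 and 18.1 FPKM 12 h after 5 Gy, 21.4, 21.9 and 16.6 FPKM 12 h after 20 Gy, 2.91, 3.47 and 2.08 FPKM 24 h after 5 Gy, and 4.48, 7.78 and 5.49 FPKM 24 h after 20 Gy. At 12 h its libraries lay between 16.6 and 22.6 FPKM, below the control libraries and overlapping between doses, and at 24 h the libraries of 5 Gy lay below those of 20 Gy. Kif20a was not called at 12 h (-0.47 ± 0.19, adjusted p = 0.1, and -0.54 ± 0.19, 0.07), and fell at 24 h by 3.00 ± 0.19 (5.3e-08) after 5 Gy and 2.16 ± 0.19 (9e-07) after 20 Gy. Kif11, which pushes the spindle poles apart, Kif15, which acts with it, Kif4a, which shapes the central spindle, and Kif2c, which takes microtubule ends apart, had log2 changes between -2.04 and -2.75 at 24 h after 5 Gy and between -1.38 and -1.69 after 20 Gy. Kif18a, which dampens chromosome movement, was low throughout, at 1.42 ± 0.469 FPKM in control cells, and its changes of -0.57, -0.30, -0.56 and -0.43 on the log2 scale (each ± 0.16) did not reach the fold limit. This scale understates its change. Its mean was 43.5% and 66.3% of the control mean at 12 h after 5 Gy and 20 Gy, and 43.7% and 55.7% at 24 h.

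Kif23, a kinesin of the central spindle, was listed at 9.90, 0 and 12.9 FPKM in the control libraries, 2.65, 0 and 0 FPKM 12 h after 5 Gy, 0, 5.52 and 0 FPKM 12 h after 20 Gy, 0, 0 and 0 FPKM 24 h after 5 Gy, and 0, 0 and 0 FPKM 24 h after 20 Gy. It was listed at 0 in 1 control library and in all 24 h libraries, so no mean and no fold change are given, and its calls at 24 h (adjusted p = 0.038 and 0.039) were lost without the first or the third control library or without any of the 24 h libraries. The Kif23 locus (chromosome 8, 66866082 to 66893196, Rnor_6.0, minus strand) also carried the name AABR07070355.1 and 7 unnamed transcripts. With these added, Kif23 was 15.7 ± 3.12 FPKM in control cells, 5.18 ± 1.63 and 7.3 ± 2.2 at 12 h after 5 Gy and 20 Gy, and 1.01 ± 0.204 and 1.79 ± 0.791 at 24 h. For Kif23, the log2 change against control was then -3.05 (6.5e-07) and -2.60 (2.7e-06) at 24 h.

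All 8 genes of spindle assembly and cytokinesis fell 24 h after either dose, with 6 of 8 at 12 h after 5 Gy and 2 of 8, Prc1 and Racgap1, at 12 h after 20 Gy. Anln (anillin), the scaffold of the contractile ring, stood at 26.3, 30.95 and 35.2 FPKM in the control libraries, 15.02, 12.9 and 8.56 FPKM 12 h after 5 Gy, 23.4, 17.3 and 11.9 FPKM 12 h after 20 Gy, 1.51, 1.67 and 1.26 FPKM 24 h after 5 Gy, and 3.12, 7.21 and 4.16 FPKM 24 h after 20 Gy. All of its exposed libraries lay below the control libraries, and at 24 h the libraries of 5 Gy lay below those of 20 Gy. The log2 change of Anln at 24 h was -3.68 ± 0.27 (adjusted p = 2.1e-07) after 5 Gy and -2.50 ± 0.27 (6.2e-06) after 20 Gy. Prc1, which bundles central spindle microtubules, fell by 3.25 ± 0.23 and 2.32 ± 0.23 at 24 h after 5 Gy and 20 Gy, Ect2, which activates RhoA at the division plane, by 2.65 ± 0.31 and 1.86 ± 0.31, and Racgap1, the partner of Kif23, by 2.75 ± 0.21 and 2.04 ± 0.21. Tpx2, which activates Aurora A, and Nusap1, which stabilises spindle microtubules, fell by 2.81 ± 0.26 and 2.31 ± 0.28 after 5 Gy and by 1.96 ± 0.26 and 1.70 ± 0.28 after 20 Gy. Hmmr and Dlgap5, both spindle assembly proteins, kept 41.5% and 50% of the control mean 24 h after 20 Gy, the highest shares of this role.

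Among the roles, anaphase and mitotic exit had the most negative median log2 change 24 h after 20 Gy, at -2.76 over 5 genes. The role was split, with Cdc20, Cdca3 and Ube2c at -2.76 or lower. Pttg1 (-1.53) and Espl1 (-1.29) were less negative than the median of the set (-1.74). Cdc20, which activates the anaphase-promoting complex, stood at 27.1, 33.9 and 37.96 FPKM in the control libraries, 16.98, 18.96 and 13.3 FPKM 12 h after 5 Gy, 15.3, 16.8 and 9.91 FPKM 12 h after 20 Gy, 3.00, 3.21 and 3.24 FPKM 24 h after 5 Gy, and 2.53, 3.48 and 3.55 FPKM 24 h after 20 Gy. No exposed library reached the lowest control library, all 24 h libraries lay below all 12 h libraries, and the doses overlapped at both times. Against control, the change of Cdc20 on the log2 scale was -0.97 ± 0.19 (adjusted p = 0.0036) and -1.20 ± 0.19 (0.001) at 12 h after 5 Gy and 20 Gy, and -3.02 ± 0.19 (5.2e-08) and -3.02 ± 0.19 (5.3e-08) at 24 h. Ube2c, the ubiquitin-conjugating enzyme of that complex, stood at 28.5, 34.7 and 40.5 FPKM in the control libraries, 20.2, 20.5 and 13.7 FPKM 12 h after 5 Gy, 22.1, 22.9 and 9.30 FPKM 12 h after 20 Gy, 1.46, 2.21 and 2.60 FPKM 24 h after 5 Gy, and 2.73, 5.44 and 4.90 FPKM 24 h after 20 Gy. The third library 12 h after 20 Gy was well below the others of its group, and at 24 h the doses did not overlap. For Ube2c, the log2 change against control at 24 h was -3.53 ± 0.31 (9.2e-07) after 5 Gy and -2.76 ± 0.31 (8.3e-06) after 20 Gy.

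Cdca3, which helps degrade the mitotic inhibitor WEE1, had the largest fall of the set. It stood at 19.2, 24.97 and 30.6 FPKM in the control libraries, 5.56, 6.09 and 4.37 FPKM 12 h after 5 Gy, 13.4, 14.4 and 9.18 FPKM 12 h after 20 Gy, 0.144, 0.497 and 0.194 FPKM 24 h after 5 Gy, and 1.61, 3.47 and 2.21 FPKM 24 h after 20 Gy. The groups were fully separated in the order control, 12 h after 20 Gy, 12 h after 5 Gy, 24 h after 20 Gy and 24 h after 5 Gy. The log2 change of Cdca3 was -2.02 ± 0.23 (adjusted p = 7.5e-05) and -0.96 ± 0.23 (0.012) at 12 h after 5 Gy and 20 Gy, and -4.33 ± 0.23 (1.3e-08) and -2.93 ± 0.23 (3.3e-07) at 24 h, and 4 to 13 read pairs per library stood behind the values 24 h after 5 Gy. Pttg1 (securin), which blocks separase, fell at 24 h by 2.41 ± 0.30 and 1.53 ± 0.30. Espl1 (separase), which cuts the cohesin rings between sister chromatids, stood at 4.91, 6.14 and 5.82 FPKM in the control libraries, 2.21, 2.51 and 1.98 FPKM 12 h after 5 Gy, 5.77, 5.95 and 4.56 FPKM 12 h after 20 Gy, 0.536, 0.511 and 0.574 FPKM 24 h after 5 Gy, and 1.26, 2.13 and 1.80 FPKM 24 h after 20 Gy. At 12 h the libraries of 5 Gy lay below those of 20 Gy, which overlapped the control libraries. At 24 h the libraries of 5 Gy lay below all others, and those of 20 Gy overlapped the range of 12 h after 5 Gy. Its log2 change was -1.03 ± 0.14 (0.00022) and -0.05 ± 0.14 (0.87) at 12 h after 5 Gy and 20 Gy, and -2.10 ± 0.14 (6.3e-08) and -1.29 ± 0.14 (4.3e-06) at 24 h.

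Top2a, the topoisomerase that untangles sister chromatids, and Mki67, the proliferation marker that coats mitotic chromosomes, followed the set. Top2a stood at 23.01, 25.5 and 28.7 FPKM in the control libraries, 10.9, 13.1 and 8.58 FPKM 12 h after 5 Gy, 21.6, 20.03 and 13.3 FPKM 12 h after 20 Gy, 0.962, 1.17 and 0.904 FPKM 24 h after 5 Gy, and 3.05, 7.32 and 3.48 FPKM 24 h after 20 Gy. Its exposed libraries lay below the control libraries, and at both times the libraries of 5 Gy lay below those of 20 Gy. Against control, the change of Top2a on the log2 scale at 24 h was -3.73 ± 0.25 (adjusted p = 8.8e-08) after 5 Gy and -2.32 ± 0.25 (5.2e-06) after 20 Gy. Mki67 stood at 12.7, 12.4 and 13.1 FPKM in the control libraries, 3.05, 3.82 and 2.82 FPKM 12 h after 5 Gy, 8.23, 9.04 and 7.62 FPKM 12 h after 20 Gy, 0.818, 0.972 and 0.896 FPKM 24 h after 5 Gy, and 2.84, 5.74 and 2.90 FPKM 24 h after 20 Gy. The control libraries lay close together, and at each time all libraries of 5 Gy lay below all libraries of 20 Gy. For Mki67, the log2 change against control was -1.71 ± 0.18 (4.5e-05) and -0.57 ± 0.18 (0.048, below the fold limit) at 12 h after 5 Gy and 20 Gy, and -2.86 ± 0.18 (5.3e-08) and -1.56 ± 0.18 (9.5e-06) at 24 h.

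**Figure D4:**
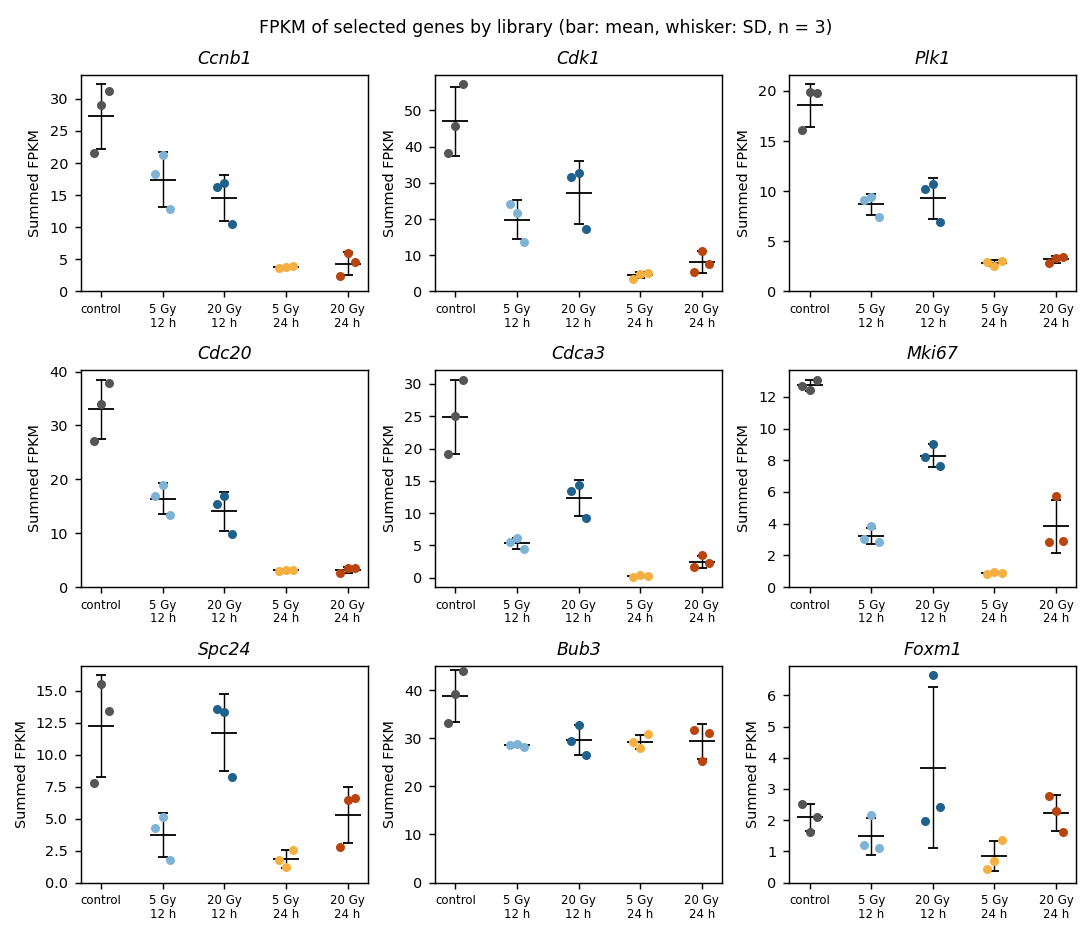
Points are libraries, horizontal bars are group means and whiskers are SD of 3 libraries, and the vertical axis is summed FPKM of the gene with a scale of its own from 0. Cdc20 and Plk1 overlap between the doses at each time, the points of Cdca3, Mki67 and Spc24 lie lower after 5 Gy than after 20 Gy, Bub3 stayed between 25.3 and 32.8 FPKM in all exposed libraries, and Foxm1 overlapped control in 3 of 4 groups.

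The question of dose was addressed by comparing 20 Gy with 5 Gy within each time. At 24 h, 16 of 47 genes were higher after 20 Gy and none was lower, where 0.956% of all genes were called higher and 1.46% lower, and the median difference was 0.71 on the log2 scale against -0.07 over all genes. The libraries of 20 Gy lay entirely above those of 5 Gy for 33 of 47 genes, compared with 6.78% of all genes. The largest differences were those of Top2a (1.41 ± 0.25, adjusted p = 0.0086), Cdca3 (1.40 ± 0.23, 0.0051) and Nuf2 (1.32 ± 0.31, 0.031), for which 6 to 23 read pairs per library stood behind the values after 5 Gy. The others called were Birc5, Bub1b, Ttk, Ndc80, Kif11, Kif15, Kif20a, Kif2c, Kif4a, Prc1, Anln, Espl1 and Mki67. The count of 16 was 7, 8 and 6 without the first, the second and the third library 24 h after 5 Gy, 7 without the second library 24 h after 20 Gy, and 0 in a fit of these 6 libraries alone, in which 37 of all genes were called. Ttk, Kif2c, Espl1, Cdca3, Top2a and Mki67 were called whichever library was left out of the full model. Genes with little difference between doses at 24 h included Cdc20 (0.00 ± 0.19, adjusted p = 1), Ccnb1 (0.08 ± 0.26, 0.91), Plk1 (0.13 ± 0.15, 0.7), Cdc25b (-0.21 ± 0.16, 0.5) and Incenp (-0.09 ± 0.14, 0.8).

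At 12 h, 2 of 47 genes were higher after 20 Gy than after 5 Gy and none was lower, where 0.117% of all genes were called higher and 0.00559% lower. These were Mki67 (1.14 ± 0.18, adjusted p = 0.032) and Espl1 (0.99 ± 0.14, 0.018). Mki67 lost its call without any 1 of the 6 libraries compared, with adjusted p of 0.055 to 0.19, and Espl1 lost it without each of them other than the third library 12 h after 20 Gy, with adjusted p of 0.06 to 0.13. The sign was positive for 42 of 47 genes and the median difference was 0.39 against -0.01 over all genes, and the libraries did not overlap for 13 of 47 genes, compared with 6.39% of all genes. The most negative differences were those of Ccnb1 (-0.24 ± 0.26), Cdc20 (-0.23 ± 0.19) and Cenpa (-0.14 ± 0.22), which were not called. Ccnb1, Cenpa and Ube2c were called against control at 12 h after 20 Gy and not after 5 Gy, but their differences between the doses were not called (adjusted p of 0.91 to 0.99).

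**Figure D5:**
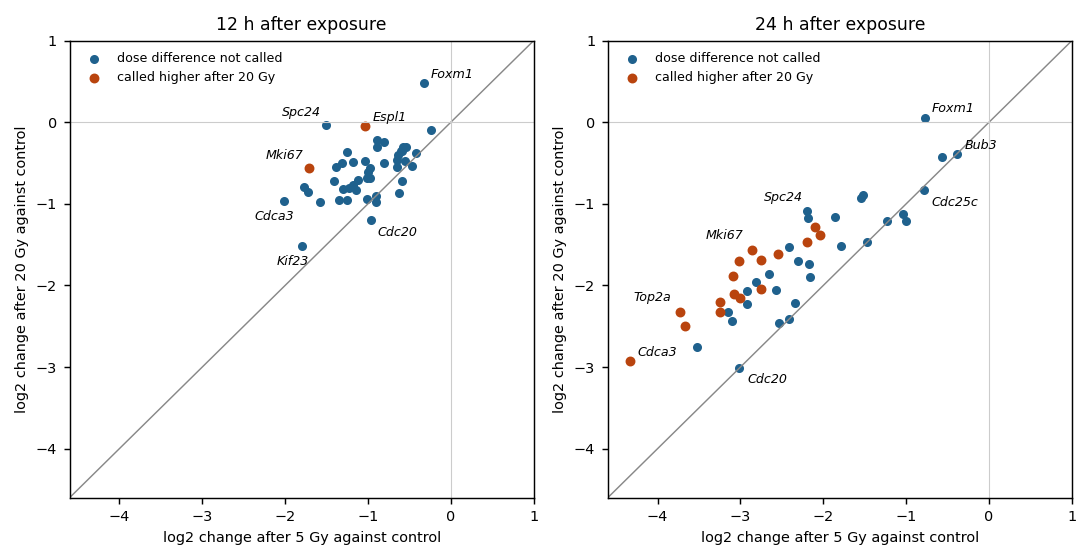
Points are the 47 genes, with the log2 change against control after 5 Gy on the horizontal axis and after 20 Gy on the vertical axis, at 12 h on the left and 24 h on the right. The line marks equal change, and both axes use the same control libraries. Red points were called higher after 20 Gy than after 5 Gy, 2 at 12 h and 16 at 24 h, and most points lie above the line.

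From 12 h to 24 h, 39 of 47 genes fell after 5 Gy and 40 of 47 after 20 Gy, and none rose, where 19.3% and 22.1% of all genes fell and 17.1% and 14.1% rose. The 24 h libraries lay entirely below the 12 h libraries for 41 genes after 5 Gy and 39 after 20 Gy, compared with 34.1% and 35.9% of all genes. The median log2 change was -1.38 after 5 Gy and -1.09 after 20 Gy, against -0.08 and -0.15 over all genes. The deepest falls over time after 5 Gy were those of Ube2c (-2.63 ± 0.31, adjusted p = 1.5e-05), Top2a (-2.55 ± 0.25, 2.9e-06) and Kif20a (-2.53 ± 0.19, 2.9e-07). After 20 Gy they were those of Cdca3 (-1.97 ± 0.23, 1.2e-05), Top2a (-1.83 ± 0.25, 5e-05) and Cdc20 (-1.82 ± 0.19, 5e-06). Cdc25c, Foxm1, Bub3, Kif18a and Kif23 were not called over time at either dose. Ccnf, Incenp and Spc24 were not called after 5 Gy, and Cenpe and Dlgap5 were not called after 20 Gy. After 20 Gy, the calls of Nek2, Spc24, Hmmr and Ect2 over time were each lost without some library. The test of whether the change over time differed between doses called none of the 47 genes by limma, where it called 0.296% of all genes with a negative and 0.257% with a positive sign, and 4 had an unadjusted p below 0.05. These were Kif20a (0.91 ± 0.27, adjusted p = 0.16) and Kif2c (0.65 ± 0.28, 0.34), with the larger change after 5 Gy, and Incenp (-0.68 ± 0.20, 0.16) and Ccnf (-0.55 ± 0.21, 0.29), with the opposite sign.

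The 47 genes were assembled from 136 transcripts on 15 chromosomes, 69 of them annotated and 67 assembled by the authors without a name. In control cells 32 genes were led by an annotated transcript and 15 by an assembled one. Cdca3 is an example of the latter, with 24.9 of its control FPKM on an assembled transcript and its annotated transcript listed at 0. In Cdk1, the annotated transcript that led in control cells, ENSRNOT00000000783, went from 37.3 FPKM to 9.23 at 12 h after 20 Gy while another, ENSRNOT00000086806, went from 5.88 to 16.5, and the split between these 2 transcripts differed widely between libraries of a group. Of the 136 transcripts, 7 had a mean of at least 0.5 FPKM 24 h after 20 Gy and a lower mean in control cells. They belong to Ccnf, Cenpe, Dlgap5, Foxm1, Hmmr, Kif2c and Pttg1. The minimum was applied in the group where they were higher, so this count is a description only. In each of them other than that of Dlgap5, the libraries overlapped the control libraries. Those of Hmmr and Ccnf rested on 1 library 24 h after 20 Gy, at 2.44 and 1.97 FPKM. That of Pttg1 also rested on 1 library, at 4.47 FPKM, with 0.888 and 0.876 FPKM in the others and a control mean of 1.11 FPKM. In Dlgap5 an assembled transcript went from 0.204 to 4.23 FPKM while the annotated one went from 10.4 to 3.81. Transcript values were not tested.

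A further 91 genes of G2 and mitosis that are not in the set were listed for comparison, and 89 were tested. At 24 h after 20 Gy 73 of 89 fell and 3 rose, with a median log2 change of -1.34, where 23.3% of all tested genes fell and 17% rose. After 5 Gy, 73 fell and 2 rose by 24 h, with a median of -1.74, where 20.8% of all genes fell and 20.5% rose. At 12 h 57 fell and 2 rose after 5 Gy (4.96% and 4.98% of all genes), and 18 fell and 2 rose after 20 Gy (3.64% and 4.9%). The most negative change 24 h after 20 Gy was that of Pimreg, a mitotic regulator (-3.23 ± 0.23, adjusted p = 1.6e-07), followed by Ccna2, cyclin A2 (-2.75 ± 0.26, 1.9e-06). The most positive were those of Psrc1, a spindle protein (1.93 ± 0.12, 6e-08), and Gtse1, a microtubule protein (1.61 ± 0.17, 3.4e-06). Both are also known as p53 targets, and both rose in all 4 exposed groups, Psrc1 from a mean of 2.228 FPKM in control cells to 11.39 and Gtse1 from 11.59 to 38.27 at 24 h after 20 Gy.

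Of 11 tested genes of the DREAM and MuvB complexes, 3 fell and 1 rose 24 h after 5 Gy, where 20.8% of all genes fell and 20.5% rose, and 4 fell and 2 rose after 20 Gy, where 23.3% fell and 17% rose. These shares are near those of all genes and are no result about the complexes. Mybl2 (B-Myb), which with MuvB activates late cell cycle genes, fell by 0.99 ± 0.22 and 0.98 ± 0.22, and Lin9, a core MuvB subunit, fell by 0.85 ± 0.22 and 0.65 ± 0.22. The Lin9 libraries 24 h after 20 Gy overlapped the control libraries. Lin37, which keeps MuvB repressive, rose by 1.19 ± 0.12 and 1.15 ± 0.12. E2f5 fell by 0.59 ± 0.12 and 1.04 ± 0.12. E2f4 fell after 20 Gy (-0.65 ± 0.08) and was not called after 5 Gy (-0.38 ± 0.08). Tfdp2 rose after 20 Gy (1.02 ± 0.235) and was not called after 5 Gy (0.45 ± 0.235). Rbl2 was called at neither dose (-0.28 ± 0.13 and -0.31 ± 0.13). Of 12 tested genes linked to G2 arrest, 9 rose and none fell 24 h after either dose, where 20.5% of all genes rose after 5 Gy and 17% after 20 Gy. At 12 h 4 rose and 4 fell after 5 Gy, and 5 rose and 2 fell after 20 Gy, where 4.98% and 4.9% of all genes rose and 4.96% and 3.64% fell. Gadd45b, a stress-induced growth arrest gene (-1.26 ± 0.15 and -1.32 ± 0.15), and Plk3, a stress-responsive Polo-like kinase (-1.02 ± 0.20 and -0.68 ± 0.20), fell at 12 h with both doses. Cdkn1a (p21), the CDK inhibitor induced by p53, had group means of 46.85 FPKM in control cells, 257 and 630.9 at 12 h after 5 Gy and 20 Gy, and 334.3 and 640 at 24 h. Its difference between 20 Gy and 5 Gy was 1.40 ± 0.33 (adjusted p = 0.15) at 12 h and 0.98 ± 0.33 (0.12) at 24 h and was not called. Wee1, the kinase that inhibits CDK1, was not called in any comparison with control, with log2 changes between -0.38 and 0.07.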

How the data were processed

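Polyadenylated RNA of 15 libraries was sequenced in read pairs. Per the submitters' processing notes and the study's methods, the authors aligned reads to Rnor_6.0 with HISAT2 2.0.13, used samtools 1.9, assembled transcripts with StringTie 1.3.5, and deposited FPKM per transcript. Counts from the authors' other pipeline were not analysed here, so limma replaced the count test of their methods.

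FPKM of 85322 transcripts were summed to 37367 genes. The 4738 unnamed transcripts at loci with several gene names were left unassigned. Genes with a mean of at least 0.5 FPKM were tested with limma 3.58.1 (R 4.3.3) on log2(FPKM + 1), in a model of group means with 10 residual degrees of freedom, the prior variance following the mean level. Calls needed a fold of 1.5 and an adjusted p (Benjamini-Hochberg) below 0.05, except in the test of the time change between doses, which needed the adjusted p alone. The same code was tested on simulated data. Read pairs behind a value were estimated from coverage, with 300 bases per pair.

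The genes, roles and comparison lists were chosen with earlier results of these data known. All 47 genes could be named, with full statistics for the extremes of each comparison and for genes whose call differed between doses or times. No label says that a replicate number marks shared material, and the numbers were used as a block only in an alternative. No replicate pair held identical values. The alternatives varied the pseudocount, filter, scaling, transcripts counted, fold limit, prior, libraries and replicate block.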

Additional observations from a re-analysis of the deposited data

Results flagged for a closer look

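These results differed between groups by a direct test. Between 12 h and 24 h, 39 of the 47 mitosis and G2/M genes differed after 5 Gy and 40 differed after 20 Gy, and all of them were lower at 24 h. Between the doses, 2 genes at 12 h, Mki67 and Espl1, and 16 genes at 24 h differed, and all were higher after 20 Gy. The 12 h and 24 h libraries also differ in time in culture, and the part of that in the first 2 counts cannot be told apart from time after exposure. In the 24 h dose comparison the second library of 20 Gy was the highest of its group for 38 of 46 genes, and the part of this library in the count was not tested beyond its omission, which left 7 genes called.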

How the results depend on the processing

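Of 4217 alternative values for single genes, 3817 kept their direction and side of the threshold, 389 lost the call, 5 gained it and 6 changed sign. Foxm1 changed sign with the unnamed transcripts of its locus added, a setting chosen after seeing the data (-0.54 for 12 h and -1.69 for 24 h, both 20 Gy). For 24 h and 20 Gy it also changed sign without the second control library (-0.053) or the first exposed one (-0.066), within a range of -0.066 to 0.20 over the omissions. Cenpe between 12 h and 24 h after 5 Gy changed sign with its top transcript alone (0.16) and with annotated transcripts alone (0.16). At 12 h after 5 Gy the count of 34 genes became 20 with top transcripts and 17 with annotated transcripts, of which 39 genes could be tested. At 12 h after 20 Gy the count of 16 became 6 with a pseudocount of 0.1, 9 without the filter, 10 on the TPM scale, 10 with the compared groups alone, 1 at a fold of 2, 5 with top transcripts, 4 with annotated transcripts and 5 without the third 12 h libraries, the last chosen after seeing the data. Annotated transcripts alone gave 26 at 24 h after 20 Gy, 23 between times after 5 Gy and 22 after 20 Gy. Between doses at 12 h the count of 2 became 1 with the smaller pseudocount, without the filter and at a fold of 2, and 0 with the compared groups alone, top transcripts, annotated transcripts, or without the third libraries. Between doses at 24 h the count of 16 became 0 with the compared groups alone, 8 at a fold of 2, 2 with top transcripts and 1 with annotated transcripts. Leaving out 1 library at a time gave 24 to 35, 5 to 14, 43 to 44 and 42 to 43 genes against control (12 h then 24 h, 5 Gy first), 39 to 40 and 36 to 43 between times, 0 to 1 and 6 to 19 between doses, and 0 to 0 for the difference of time changes. With the replicate number as a block the counts were 33, 14, 43, 43, 39, 40, 2, 16 and 0 in that order. Deviations of same-numbered libraries correlated at -0.177 to 0.232 over all groups, with 4 of 30 pairs over 0.1, so the pairing limit set for every pair was not met. Between the exposed groups of a time they were all positive (0.0452 to 0.232 at 12 h, 0.0642 to 0.155 at 24 h). Between the control libraries, also labelled 12 h, and the exposed 12 h libraries they were -0.177 to 0.00417. Shared material by number within a time was not tested further. TPM scaling moved the median of all genes by 0.10 on the log2 scale at 24 h after 5 Gy. Few read pairs limit Cdca3 (4 to 13 per library), Ttk (5 to 20), Nuf2 (6 to 23) and Kif23 (0) at 24 h after 5 Gy.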
